A study of Homo sapiens with 13 samples.

Results

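The genes described here are 47 genes of the ATF4 response and of amino acid supply, chosen by name for their role. Earlier results of these data were known when they were chosen, so shares called in the list are descriptions only. The genes were looked up by symbol in both deposited comparison tables, which list 23886 symbols each. They fall into 15 regulators and effectors of the response, 12 enzymes of amino acid synthesis, 8 amino acid transporters and 12 cytosolic tRNA synthetases. All 47 were listed in both tables, and 44 had a base mean of at least 10 normalised reads in each. STC2, ALDH1L2 and CBS did not.

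All RNA came from DLD-1, an established line of human colon adenocarcinoma cells, transfected with small interfering RNA (siRNA) at 50 nM and harvested 72 h later. Of 13 samples in 3 experiments, 3 received a control siRNA (siCtrl) in experiments 1 and 2, and 4 received an siRNA against SOX9 (siSOX9) in the same experiments. In experiment 3, 2 samples received siCtrl and 4 received an siRNA against Y14 (siY14), 2 with the siRNA numbered 9 and 2 with number 10. The transcription factor SOX9 is active in intestinal crypts, and Y14, the product of RBM8A, belongs to the core of the exon junction complex. The siSOX9 table compares the arms of experiments 1 and 2, and the siY14 table those of experiment 3 with both Y14 siRNAs in 1 arm. The tables share no control samples. The title of the series is about what SOX9 does in splicing and in transcription, and values per gene bear on RNA levels only.

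ATF4 is a transcription factor whose mRNA is translated when the initiation factor eIF2 is phosphorylated, as under amino acid shortage or endoplasmic reticulum stress. It acts as a dimer with C/EBP proteins at C/EBP-ATF response elements (CARE) and is known for raising genes that take up, make and charge amino acids onto tRNA. ATF4 itself is largely set by translation, so its mRNA level does not give its protein level.

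Depth and identity of the libraries were checked first. Whole reads per library were recovered from the printed digits of the arm means, and the recovered libraries carry letters, a for the deepest in its arm, and no sample names. Estimated depth ran from 24.8 M to 184 M reads in the siSOX9 table and from 47.2 M to 71.6 M in the siY14 table. In the siSOX9 table library a of siCtrl and library a of siSOX9 stood apart from the rest, and their deviations from the arm means correlated at 0.910 over 8623 genes. Experiment 2 gave 1 sample to each of these arms, and whether those samples are the a libraries cannot be told from the files. In the siY14 table the 2 siCtrl libraries differed by no more than sampling noise would give (chi-square of 1.01 per gene over 2311 genes, p = 0.338), and so did siY14 libraries a and c (1.02 per gene, p = 0.290). Each of these pairs was therefore counted as 1 sample in a separate fit, given below beside the calls of the authors, whose test took every library as a sample. Libraries b and d of the siY14 arm differed by 1.17 per gene (chi-square test, p = 2.16e-08), and libraries of different pairs differed by 16.5 to 23.1 per gene. Whether the pairs a with c and b with d are the different Y14 siRNAs cannot be told from the files. SOX9 fell from a mean of 24468 to 9067 in the siSOX9 table (adjusted p = 0.00014 in the authors' deposited table), and RBM8A was listed at 0 in both tables, so Y14 knockdown could not be checked. Of 10 colon epithelial markers 9 had a base mean of at least 10 in each table, CDX1 being the exception. Immune markers summed to between 128 and 176 normalised reads per arm, with MS4A1 and NKG7 at 0 in both tables. Fibroblast and endothelial markers summed to between 87.4 and 182. Among the markers that passed in the authors' deposited tables, the colon marker VIL1 was lower in both, KRT20 was higher with siSOX9 and lower with siY14, CDH1 and LGALS4 were lower with siY14, and the fibroblast genes COL1A1 and COL3A1, at or under 82.6 normalised reads per arm, were higher with siSOX9 while PDGFRB was lower. Their part in the results was not tested. The titles place the siSOX9-table samples in 2 experiments and give the siY14 arm 2 siRNAs, so some cultures within these groups were separate. For repeats of the same siRNA within an experiment the labels do not say so, and the p-values rest on the spread among the libraries at hand, and that spread may be technical.

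The promoters show which of the genes carry the CARE core within the bases around their annotated start, and they are given here because members with and without it can then be read side by side. RefSeq promoter sequences of build GRCh38.p14, from 250 bases before to 50 bases after each start, matched 38 of the 47 genes and gave 62 windows, since a gene can have several starts. The core TGATGNAA, searched on both strands, occurred in 16 of these 62 windows (25.8%), each in a different gene, and in 1270 of all 35116 windows (3.62%). It occurred in 7 of the 10 matched synthetase genes, in 4 of 7 transporter genes, in 4 of 14 regulator genes and in 1 of 7 synthesis genes. The form TGATGCAA, which is contained in TGATGNAA, made up 11 of the 16 matches and occurred in 0.866% of all windows. The cyclic AMP response element TGACGTCA, searched on both strands, occurred in 1 member window, that of PPP1R15A, and in 1.85% of all windows. The endoplasmic reticulum stress element, also searched on both strands, occurred in 0 member windows and in 0.0769% of all windows. A match is a description of the letters in the window and not evidence of binding.

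The 16 matches are shown with 10 bases on either side where the window allows, each read 5′ to 3′ on the strand that carries the core, with the core in capitals. The first 4 belong to regulators, the next to a synthesis enzyme, 4 to transporters and the last 7 to synthetases.

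ATF3 (chr1:212565206-212565233, plus strand): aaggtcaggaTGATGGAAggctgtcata
CHAC1 (chr15:40953252-40953279, minus strand): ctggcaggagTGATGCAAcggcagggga
CEBPG (chr19:33374061-33374088, plus strand): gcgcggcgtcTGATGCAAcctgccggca
JDP2 (chr14:75427996-75428023, plus strand): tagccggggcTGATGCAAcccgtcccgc
ASNS (chr7:97872459-97872486, minus strand): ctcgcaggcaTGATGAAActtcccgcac
SLC7A1 (chr13:29595664-29595691, minus strand): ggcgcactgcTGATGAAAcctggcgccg
SLC3A2 (chr11:62881726-62881748, minus strand): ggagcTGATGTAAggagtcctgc
SLC1A4 (chr2:64989382-64989409, minus strand): cggctggagaTGATGCAAacgggagccg
SLC1A5 (chr19:46784894-46784921, minus strand): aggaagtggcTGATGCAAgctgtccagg
AARS (chr16:70289676-70289703, plus strand): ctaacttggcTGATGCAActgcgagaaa
GARS (chr7:30594835-30594862, minus strand): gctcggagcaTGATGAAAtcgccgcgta
NARS (chr18:57621805-57621832, minus strand): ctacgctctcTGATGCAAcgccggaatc
MARS (chr12:57488054-57488081, minus strand): aatccctcgcTGATGCAAccggaaccgg
CARS (chr11:3057408-3057435, plus strand): tcctagaatcTGATGCAAccgccgcccc
IARS (chr9:92293693-92293720, plus strand): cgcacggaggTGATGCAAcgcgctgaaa
TARS (chr5:33440957-33440984, minus strand): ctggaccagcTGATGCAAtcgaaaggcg

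Of the 16 cores, 11 are TGATGCAA, 3 are TGATGAAA, and ATF3 and SLC3A2 have the other forms. ASNS, encoding the enzyme that makes asparagine, is the synthesis gene with a match, and its whole window is shown because ASNS had the lowest ratio in the siY14 table among the members with a base mean of at least 10.

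ASNS promoter (chr7:97872359-97872658, minus strand): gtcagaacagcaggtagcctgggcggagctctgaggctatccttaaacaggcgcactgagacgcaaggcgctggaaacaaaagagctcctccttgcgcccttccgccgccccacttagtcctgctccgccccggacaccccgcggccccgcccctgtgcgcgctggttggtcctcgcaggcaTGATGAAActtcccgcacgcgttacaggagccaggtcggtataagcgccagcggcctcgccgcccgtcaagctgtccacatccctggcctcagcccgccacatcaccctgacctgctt

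**Figure D1:**
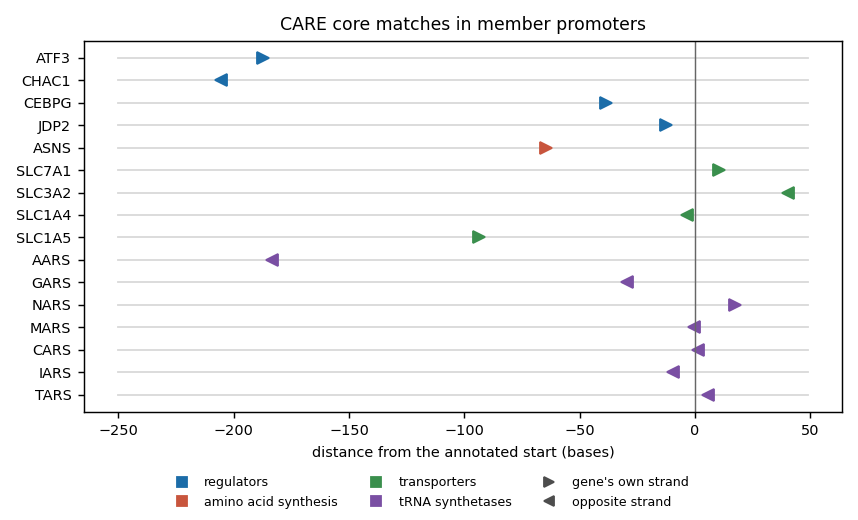
Position of the CARE core in the 16 member promoters that hold it. The horizontal axis gives the distance from the annotated start in bases (grey lines span the searched window), each triangle is a match coloured by role, and its direction gives the strand relative to the gene. Of the 16 matches 11 lie within 50 bases of the start, and 7 lie on the gene's own strand.

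With siSOX9, 4 of the 8 listed transporter genes, the serine synthesis genes PSAT1 and PHGDH and several effectors of the ATF4 response were lower. The gene of the cysteine-forming enzyme CTH was higher. Of the 47 genes, 11 passed in the authors' deposited table at an adjusted p of 0.05, 10 lower and 1 higher, or 23.4%. Over all 18747 genes with reads 3.47% passed, 2.27% lower and 1.19% higher. Over the 13649 with a base mean of at least 10 the share was 4.69%, 3.11% lower and 1.58% higher. Among 8048 genes with a base mean of at least 1000, which is the range of most members, 3.73% passed. The ratio of siSOX9 to siCtrl was below 1 for 39 of the 44 genes with a base mean of at least 10, and their median log2 ratio was -0.34, beside 0.01 over all 13649 such genes, of which 47.9% were below 1. As this is RNA from whole cultures, fewer cells with a transcript and less transcript per cell cannot be told apart.

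**Figure D2:**
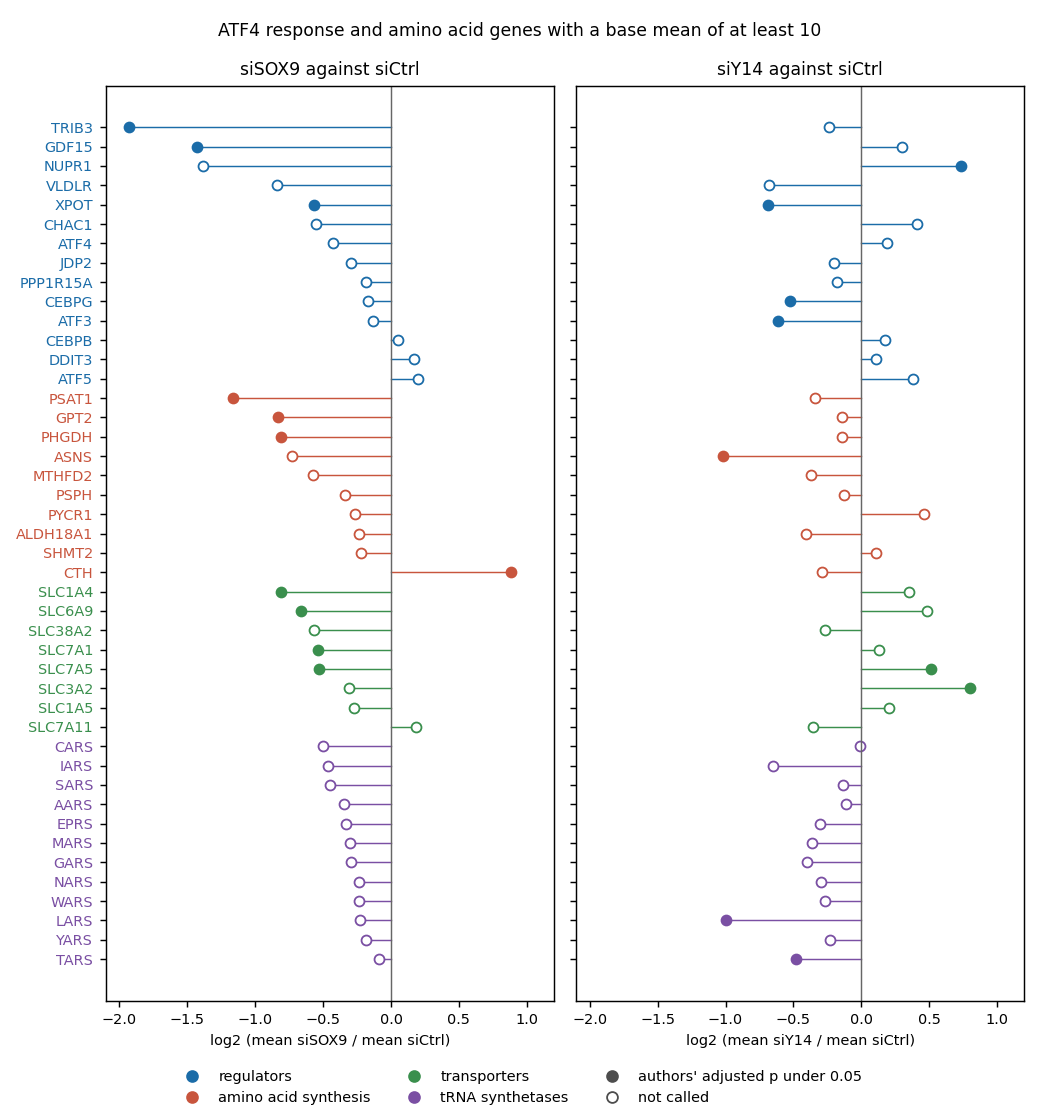
Log2 ratio of the knockdown mean to the siCtrl mean for the 44 members with a base mean of at least 10, in the siSOX9 table (left) and the siY14 table (right). Rows are genes, grouped and coloured by role and ordered by the siSOX9 ratio, and filled points passed the authors' adjusted p of 0.05. TRIB3 at -1.93 is the lowest point with siSOX9, and SLC3A2 at 0.80 is the highest point with siY14. All 12 synthetases lie below 0 in both panels, beside 47.9% (siSOX9) and 50.1% (siY14) of all genes with a base mean of at least 10.

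Among the regulators, 3 of 15 were called with siSOX9, all lower, beside 3.11% of all genes with a base mean of at least 10. TRIB3 encodes a pseudokinase that binds ATF4 and is itself induced by it. Its 3 siCtrl libraries held 17827, 17891 and 18053 normalised reads, a spread of 0.651% (coefficient of variation), and the siSOX9 mean was 4698. That is 73.8% lower, a log2 ratio of -1.93 with an adjusted p = 7.33e-23 in the authors' deposited table. Reads of the siSOX9 libraries were not recovered for TRIB3, so their spread is not known here. TRIB3 was the lowest of the 44 members by ratio.

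GDF15, a stress-induced secreted cytokine, held 10466, 13812 and 14259 normalised reads in the siCtrl libraries a to c. In the siSOX9 libraries a to d it held 3589, 5320, 5135 and 5023. Every siSOX9 library was below every siCtrl library, and the deepest library was the lowest of its arm in both groups. The log2 ratio was -1.43 (adjusted p = 3.56e-06 in the authors' deposited table), and limma-voom on the recovered reads gave -1.46 ± 0.16 (SE, adjusted p = 0.000696). Without the deepest library of each arm it was -1.44.

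XPOT encodes exportin-t, which carries tRNA out of the nucleus. Its siCtrl libraries held 13806, 13695 and 14277 normalised reads and the siSOX9 mean was 9401, a log2 ratio of -0.57 that passed narrowly (adjusted p = 0.0487 in the authors' deposited table). The mean lay below all siCtrl libraries, as was so for 29 of the 37 members whose siCtrl reads were recovered, beside 26.9% of all genes.

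NUPR1, a small stress-induced chromatin protein, did not pass in the authors' deposited table, where its log2 ratio was -1.38 (adjusted p = 0.077). Its siCtrl libraries held 1536, 2668 and 2252 normalised reads and its siSOX9 libraries 682, 1120, 652 and 843. The arms did not overlap, and limma-voom on the recovered reads gave -1.34 ± 0.23 (SE, adjusted p = 0.0058). Leaving out any 1 library kept that call, with ratios from -1.64 to -1.16.

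CHAC1, which degrades glutathione, followed the same pattern and was singled out after its values were seen. It held 2143, 2296 and 2277 normalised reads in the siCtrl libraries and 1479, 1811, 1174 and 1645 in the siSOX9 libraries. These arms did not overlap either, and the adjusted p was 0.0778 in the authors' deposited table and 0.0193 by limma-voom. VLDLR, a lipoprotein receptor gene, held 1157, 801 and 915 normalised reads with siCtrl and 723, 513, 423 and 485 with siSOX9, and passed by limma-voom (adjusted p = 0.0259) but not in the authors' deposited table (adjusted p = 0.252).

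The transcription factor genes of the list did not pass in the authors' deposited table. ATF4 had means of 50616 with siCtrl and 37579 with siSOX9, a log2 ratio of -0.43 that did not pass (adjusted p = 0.411 in the authors' deposited table). DDIT3, encoding the stress factor CHOP, held 1213, 1104 and 1111 normalised reads with siCtrl and 1292, 1301, 1154 and 1382 with siSOX9, so its arms overlapped. ATF3, CEBPB, CEBPG and JDP2 also had overlapping libraries and log2 ratios between -0.29 and 0.05, none of which passed. With library a against the others as a term in limma-voom, ATF3 and CEBPG did pass (log2 ratios -0.16 and -0.13, adjusted p = 0.0182 and 0.00226). In that fit 11 of the 13 recovered members were called, beside 53.8% of all genes. Other transcription factor genes of this paragraph were also among these 11, and their values in that fit are not given here. Without that term 7 of the 13 were called, beside 16.4% of all genes. ATF5, the other ATF4-like factor of the list, held 976, 1938 and 1812 normalised reads with siCtrl and 969, 2078, 2118 and 2080 with siSOX9. The deepest library of each arm was the low one and the other 5 lay at 1812 or above, so that libraries differed more than arms. Among the other 5, each siSOX9 library was above each siCtrl library. PPP1R15A, which encodes the eIF2 phosphatase subunit GADD34, had a siCtrl range from 4416 to 7141 normalised reads with the siSOX9 mean of 5363 inside it.

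**Figure D3:**
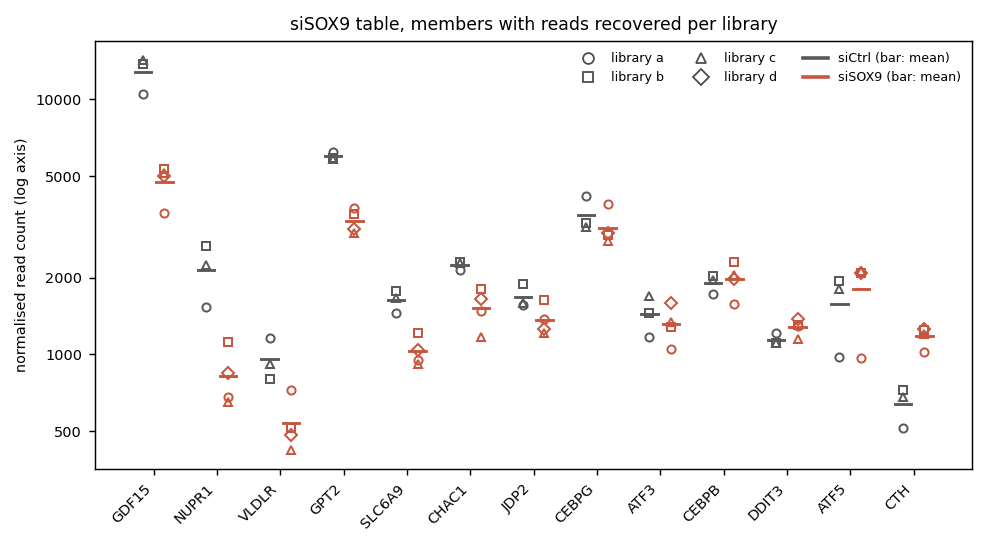
Normalised read counts (log axis) in each recovered library of the siSOX9 table for the 13 members with reads recovered in both arms. Symbols a to d are libraries in order of depth, grey is siCtrl, red is siSOX9 and bars are arm means, and genes are ordered by their ratio. In 7 of the 13 genes, beside 28.2% of all genes, the arms do not overlap, GDF15, NUPR1, VLDLR, GPT2, SLC6A9 and CHAC1 lower and CTH higher.

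Among the synthesis enzymes, 3 of 12 were lower and 1 was higher, beside 3.11% and 1.58% of all genes with a base mean of at least 10. The lower ones were PSAT1 and PHGDH, consecutive steps of serine synthesis, and GPT2, the mitochondrial alanine transaminase. PSAT1 went from a siCtrl mean of 31129 to 13876, a log2 ratio of -1.17 (adjusted p = 0.0126 in the authors' deposited table), and no library of it was recovered. PHGDH held 20090, 21008 and 20228 normalised reads in the siCtrl libraries, and its siSOX9 mean of 11669 lay below all of them, at a log2 ratio of -0.81 (adjusted p = 0.00147 in the authors' deposited table). PSPH, the last step of the same route, had siCtrl libraries of 5418, 4754 and 4749 and a siSOX9 mean of 3930, and its log2 ratio of -0.34 did not pass (adjusted p = 0.91 in the authors' deposited table).

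GPT2 held 6229, 5878 and 5823 normalised reads in the siCtrl libraries and 3745, 3559, 3004 and 3094 in the siSOX9 libraries. Its arms lay apart by more than the range within either. The log2 ratio was -0.83 (adjusted p = 0.000964 in the authors' deposited table), and limma-voom gave -0.83 ± 0.09 (SE, adjusted p = 0.000645). Without the deepest library of each arm it was -0.85.

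CTH, which makes cysteine from cystathionine, went the other way. It held 515, 726 and 681 normalised reads with siCtrl and 1021, 1249, 1206 and 1254 with siSOX9, so that every siSOX9 library was above every siCtrl library. The log2 ratio was 0.88 (adjusted p = 8.91e-05 in the authors' deposited table), and limma-voom gave 0.93 ± 0.14 (SE, adjusted p = 0.00317). CBS, which makes cystathionine, was near the floor with 0.87 to 18.7 normalised reads in its siCtrl libraries and 5.87 to 14.5 in its siSOX9 libraries. ASNS had means of 20205 and 12178 and a log2 ratio of -0.73 that did not pass (adjusted p = 0.232 in the authors' deposited table). The other uncalled synthesis genes with a base mean of at least 10, which are MTHFD2, SHMT2, PYCR1 and ALDH18A1, had log2 ratios from -0.57 to -0.22.

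Transporters held the highest share called with siSOX9, 4 of 8, all lower, beside 3.11% of all genes with a base mean of at least 10. SLC1A4 carries neutral amino acids such as serine and alanine. Its siCtrl libraries held 11545, 10858 and 10686 normalised reads and the siSOX9 mean was 6286, a log2 ratio of -0.81 (adjusted p = 0.000664 in the authors' deposited table). The glycine transporter gene SLC6A9 held 1450, 1766 and 1667 with siCtrl and 947, 1208, 920 and 1044 with siSOX9. Its arms did not overlap, and its log2 ratio was -0.66 (adjusted p = 0.024 in the authors' deposited table), or -0.65 ± 0.12 (SE, adjusted p = 0.00622) by limma-voom.

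SLC7A1, the carrier of cationic amino acids, and SLC7A5, the light chain of the exchanger of large neutral amino acids, were lower by a similar amount. SLC7A1 held 12219, 13967 and 13115 normalised reads with siCtrl and a mean of 9007 with siSOX9, a log2 ratio of -0.54 (adjusted p = 0.0402 in the authors' deposited table). SLC7A5 held 46937, 44022 and 45559 with siCtrl and a mean of 31448 with siSOX9, a log2 ratio of -0.53 (adjusted p = 0.0351 in the authors' deposited table). Both means lay below all siCtrl libraries. SLC3A2, the heavy chain that SLC7A5 pairs with, had siCtrl libraries of 27151, 23198 and 23232 and a siSOX9 mean of 19785, and did not pass (log2 ratio -0.31, adjusted p = 0.477 in the authors' deposited table). The copies SLC7A5P1 and SLC7A5P2 had arm means between 42.5 and 75.5, and sharing of reads between them and SLC7A5 was not tested. The glutamine carriers SLC38A2 and SLC1A5 had log2 ratios of -0.57 and -0.27, and SLC7A11, the cystine carrier, had 0.19, none of which passed.

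None of the 12 synthetases passed with siSOX9 in the authors' deposited table (adjusted p from 0.181 to 1, with 2 at an unadjusted p under 0.05). All 12 had ratios below 1, beside 47.9% of all genes with a base mean of at least 10. The 12 are AARS, GARS, WARS, NARS, SARS, MARS, EPRS, CARS, IARS, YARS, TARS and LARS, each named by the letter of the amino acid it charges. Their log2 ratios ran from -0.50 to -0.09 with a median of -0.30. CARS, which charges cysteine, held 8412, 7534 and 7238 normalised reads with siCtrl and a mean of 5463 with siSOX9. IARS, which charges isoleucine, had means of 27814 and 20166. Of the 10 synthetases with recovered siCtrl libraries, 9 had a siSOX9 mean below all of them, beside 26.9% of all genes. TARS was the exception. No siSOX9 library of a synthetase was recovered, so limma-voom was not run on them.

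With siY14 the called members included the exchanger chains SLC3A2 and SLC7A5, which were higher, and ASNS and 2 synthetases, which were lower. Of the 47 genes, 9 passed in the authors' deposited table, or 19.1%, with 3 of them higher and 6 lower, beside 9.16% over all 17706 genes with reads (3.81% higher and 5.35% lower). Over the 13444 with a base mean of at least 10 the share was 12%, 4.99% higher and 7.01% lower. Among 8106 genes with a base mean of at least 1000, 13.2% passed, so the share of members is nearer to its background than with siSOX9. The median log2 ratio of the 44 members was -0.19, beside 0.00 over all such genes. The siY14 mean was below both siCtrl libraries for 29 of the 44 and above both for 15, beside 46.5% and 46.1% of all genes. The authors' test took each library as a sample. With agreeing libraries counted once, limma-voom sets 1 siCtrl sample against 3 siY14 samples. Its spread then comes from the siY14 samples alone and siCtrl is assumed to vary like them, so only ratios are given from that fit. Whether the authors' calls hold with agreeing libraries counted once therefore cannot be told. With every library as a sample, limma-voom called 4 of the 12 members with reads recovered in both arms, beside 27.3% of all genes.

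Of the 8 transporters 2 passed with siY14 (25%, beside 12% of all genes with a base mean of at least 10), both higher. SLC3A2 held 33532 and 33738 normalised reads in the siCtrl libraries, which count as 1 sample, and a mean of 58418 with siY14, which is 73.7% higher (log2 ratio 0.80, adjusted p = 0.000538 in the authors' deposited table). SLC7A5 held 41699 and 42562 with siCtrl and a mean of 60179 with siY14 (log2 ratio 0.51, adjusted p = 0.0395 in the authors' deposited table). SLC7A5P1 and SLC7A5P2 were at 39.1 and 42.7 in the siY14 arm. The ratio was above 1 for 6 of the 8 transporters, with a median log2 ratio of 0.28. Of all genes with a base mean of at least 10, 50.1% had a ratio below 1. SLC6A9 held 1179 and 1281 with siCtrl and 1287, 2149, 1306 and 2128 in siY14 libraries a to d. Libraries b and d were high and a and c were close to siCtrl, and SLC6A9 did not pass (adjusted p = 0.469 in the authors' deposited table).

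Among the regulators 4 of 15 passed with siY14 (26.7%, beside 12% of all genes with a base mean of at least 10). NUPR1 was higher, at 574 and 544 normalised reads with siCtrl and 899, 949, 860 and 1002 with siY14 (log2 ratio 0.73, adjusted p = 0.00523 in the authors' deposited table). CEBPG, a dimer partner of ATF4, was lower, at 6191 and 6214 with siCtrl and 4168, 4337, 4271 and 4431 with siY14 (log2 ratio -0.53, adjusted p = 0.0252 in the authors' deposited table). In both genes all 4 siY14 libraries lay on 1 side of siCtrl and close to each other. With agreeing libraries counted once by limma-voom the ratios were 0.74 and -0.53, and no p-value is read from that fit, in which siCtrl is 1 sample.

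ATF3, a stress-induced transcription factor, was lower with siY14, at 3003 and 2918 normalised reads with siCtrl and 2219, 1712, 2142 and 1678 in libraries a to d (log2 ratio -0.61, adjusted p = 0.00915 in the authors' deposited table). Its libraries b and d averaged 1695 and a and c 2180, so both pairs lay below siCtrl by unequal amounts. XPOT was lower again, from 18772 and 18357 in the siCtrl libraries to a mean of 11556 (log2 ratio -0.68, adjusted p = 0.00759 in the authors' deposited table). ATF4 had 39598 and 40582 with siCtrl and a mean of 45679 with siY14 (adjusted p = 0.605 in the authors' deposited table). TRIB3 had 17207 and 17099 with siCtrl and a mean of 14506, a log2 ratio of -0.24 with an adjusted p = 0.842 in the authors' deposited table.

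Arms did not overlap in 9 of the 12 members recovered in both arms of the siY14 table, beside 62.9% of all genes. Several regulators differed between the pairs of siY14 libraries. VLDLR averaged 811 in libraries a and c and 448 in b and d, against 1009 with siCtrl, so its log2 ratio was -0.31 in 1 pair and -1.17 in the other. DDIT3 averaged 1867 in a and c and 2583 in b and d, on either side of its siCtrl mean of 2069. CHAC1 averaged 943 and 1225 against 816 with siCtrl, above it in both pairs. These 3 genes did not pass in the authors' deposited table and were singled out after their values were seen.

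**Figure D4:**
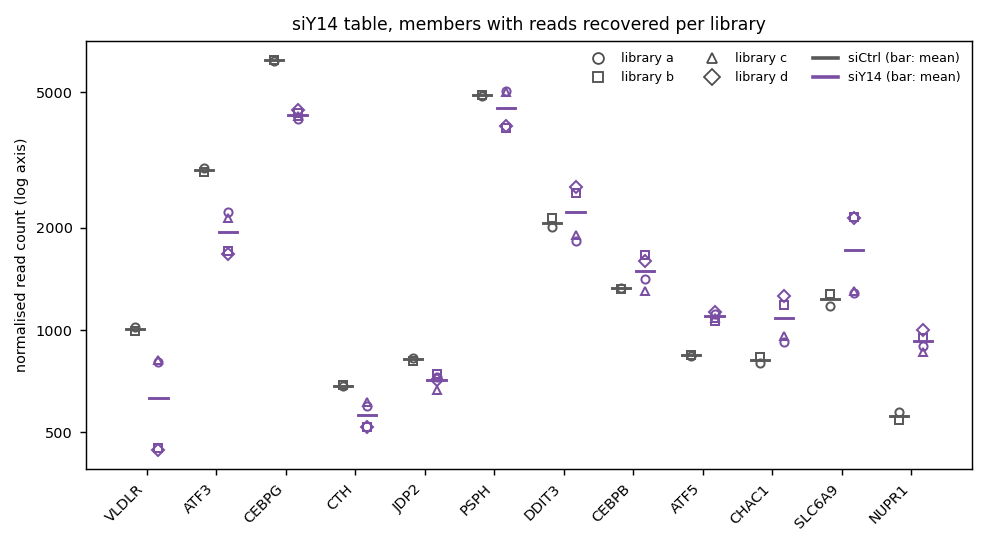
Normalised read counts (log axis) in each recovered library of the siY14 table for the 12 members with reads recovered in both arms. Symbols a to d are libraries in order of depth, grey is siCtrl, purple is siY14 and bars are arm means, and genes are ordered by their ratio. The mean of libraries a and c over that of b and d is a log2 ratio of 0.86 in VLDLR and -0.72 in SLC6A9, and 0.01 in ATF5, where the libraries interleave. In 9 of the 12 genes, beside 62.9% of all genes, all 4 siY14 libraries lie on 1 side of siCtrl.

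Among the synthesis enzymes ASNS alone passed with siY14 (8.33%, beside 12% of all genes with a base mean of at least 10). It held 19300 and 19376 normalised reads with siCtrl and a mean of 9537 with siY14, 50.7% lower (log2 ratio -1.02, adjusted p = 3.57e-07 in the authors' deposited table). PYCR1, a proline synthesis enzyme, held 8991 and 9021 with siCtrl and a mean of 12410 with siY14, the highest ratio among synthesis genes, and did not pass (log2 ratio 0.46, adjusted p = 0.0726 in the authors' deposited table). PSAT1, PHGDH and GPT2, lower with siSOX9, had log2 ratios of -0.34, -0.14 and -0.14 with siY14, none of which passed. CTH held 684 and 689 with siCtrl and 596, 518, 614 and 518 with siY14 (log2 ratio -0.29, adjusted p = 0.367 in the authors' deposited table).

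Of the synthetases 2 of 12 passed with siY14, both lower. That is 16.7%, near the 12% of all genes with a base mean of at least 10. All 12 had ratios below 1 again, beside 50.1% of all genes with a base mean of at least 10. LARS, which charges leucine, held 9268 and 9267 normalised reads with siCtrl and a mean of 4652 with siY14, 49.8% lower (log2 ratio -0.99, adjusted p = 0.000242 in the authors' deposited table). TARS, which charges threonine, held 31315 and 30726 with siCtrl and a mean of 22234 (log2 ratio -0.48, adjusted p = 0.0445 in the authors' deposited table). IARS had 40680 and 40510 with siCtrl and a mean of 25822, and its log2 ratio of -0.65 did not pass (adjusted p = 0.186 in the authors' deposited table). CARS, the lowest synthetase by ratio with siSOX9, had 8027 and 8009 with siCtrl and a mean of 7971 with siY14. The median log2 ratio of the synthetases was -0.30 with siY14 and -0.30 with siSOX9.

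Set side by side, 27 of the 44 genes were below siCtrl in both tables, 12 were below with siSOX9 and above with siY14, 2 the reverse, and 3 above in both. Only XPOT and SLC7A5 passed in both of the authors' deposited tables (4.26% of the list, beside 0.555% of all 17291 genes with reads in both), XPOT lower in each and SLC7A5 in opposite directions. Across the 44 genes the log2 ratios had a Pearson correlation of -0.12 and a Spearman correlation of -0.13, beside 0.12 and 0.09 across all 13186 genes. These are correlations across genes, which are not independent replicates.

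The difference between the effects was tested with standard errors implied by the authors' p-values, which is approximate and takes agreeing siY14 libraries as separate samples. It passed an adjusted p of 0.05 for 9 of the 44 genes (20.5%), beside 7.45% of all 13186 genes tested (3.75% with the siSOX9 ratio lower and 3.71% with it higher). The siSOX9 ratio was the lower for 8 of them, namely TRIB3, CHAC1, NUPR1, GDF15, PYCR1, SLC7A5, SLC3A2 and SLC1A4, and the higher for CTH. NUPR1 differed by -2.11 ± 0.51 on the log2 scale (SE, adjusted p = 0.00176 by this normal test over all genes) and SLC3A2 by -1.11 ± 0.24 (adjusted p = 0.000262 by the same test). TRIB3 differed by -1.69 ± 0.42 (adjusted p = 0.00278) and CTH by 1.17 ± 0.26 (adjusted p = 0.000432). No synthetase passed this test, LARS having the largest difference at 0.77 ± 0.31 (adjusted p = 0.113).

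A joint limma-voom model of the recovered reads tested 11 members for the same difference. It called 4 of them, CHAC1, NUPR1, CTH and SLC6A9, beside 21.1% of all genes, and the same 4 when agreeing libraries were counted once, beside 10.1% of all genes. In that fit NUPR1 differed by -2.01 ± 0.41 (SE, adjusted p = 0.0129) and CTH by 1.23 ± 0.25 (adjusted p = 0.0129). The other 6 genes called by the test on the authors' p-values, which are TRIB3, GDF15, PYCR1, SLC7A5, SLC3A2 and SLC1A4, had too few recovered libraries to enter it.

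**Figure D5:**
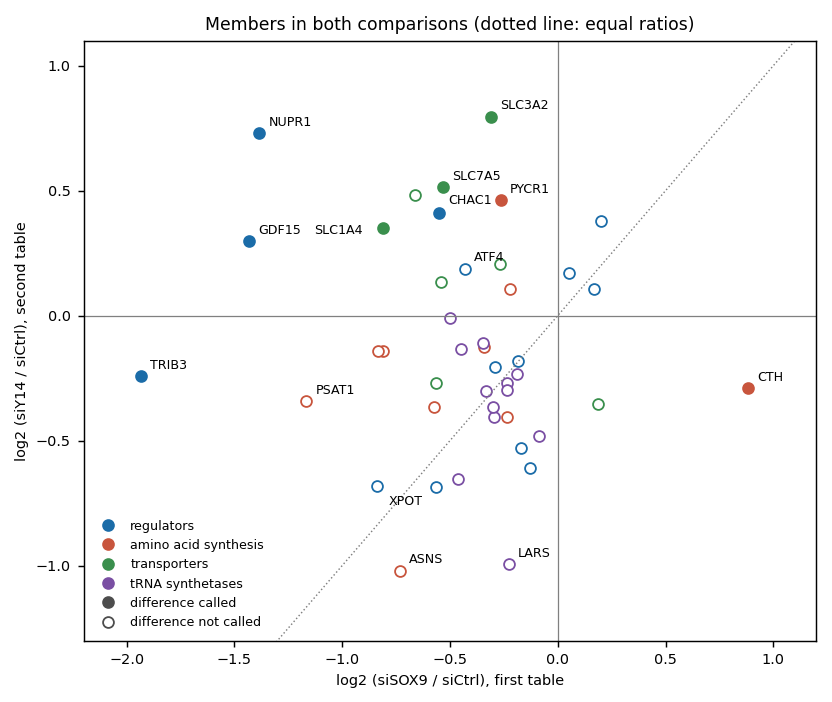
Log2 ratio with siSOX9 (horizontal) against log2 ratio with siY14 (vertical) for the 44 members with a base mean of at least 10 in both tables. Points are genes coloured by role, filled where the difference between the ratios passed an adjusted p of 0.05, and the dotted line marks equal ratios. The filled points lie above the line except CTH at 0.88 and -0.29, and the synthetases lie where both ratios are below 0.

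Ratios of members with and without the CARE core in a promoter window are set side by side without a test. With siSOX9 the 16 genes with the core had a median log2 ratio of -0.31, with 2 called lower, and the 20 matched genes without it and with a base mean of at least 10 had -0.49, with 7 called lower and 1 higher. With siY14 the medians were -0.25 and -0.21, with 4 lower and 1 higher among genes with the core, and 1 lower and 1 higher among those without it. Of all genes with a base mean of at least 10, 3.11% were called lower and 1.58% higher with siSOX9, and 7.01% and 4.99% with siY14. The groups differ in role, since 7 of the 16 genes with the core are synthetases, none of which passed with siSOX9. TRIB3 and GDF15 had no match in these windows, which says only that the letters are not there.

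Levels between genes are compared per kilobase of exon, as siCtrl mean normalised reads divided by the length of all exons. In the siSOX9 table ATF4 was the highest member at 20134 per kilobase, followed by PSAT1 at 14227 and GARS at 11792. In the siY14 table the order at the top was PSAT1 at 17227, ATF4 at 15947 and GARS at 14101. The lowest members with a base mean of at least 10 were VLDLR at 105 and JDP2 at 291 per kilobase in the siSOX9 table, and NUPR1, then VLDLR at 110, in the siY14 table. The tables were normalised separately, so a gene's level is not compared between them. STC2, ALDH1L2 and CBS lay between 0 and 3.35 per kilobase in both tables.

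Other genes of the pathway, from lists chosen by function, were counted in the same way. They gave 13 calls among 136 genes with a base mean of at least 10 with siSOX9 (5 higher and 8 lower), and 14 among 134 with siY14 (6 higher and 8 lower), beside 4.69% and 12% of all genes at that base mean, so the siY14 count is near its background. Of the kinases, subunits and exchange factors of eIF2, 0 of 16 passed in either of the authors' deposited tables, with log2 ratios from -0.27 to 0.31 with siSOX9 and from -0.42 to 0.15 with siY14. Of 20 genes of the ATF6 and XBP1 branches of the unfolded protein response, 0 passed in either, and the chaperone gene HSPA5 had log2 ratios of 0.03 and -0.26. Of the 10 other cytosolic synthetase and scaffold genes with a base mean of at least 10, 0 passed with siSOX9 and RARS and FARSB were lower with siY14 (log2 ratios -0.53 and -0.47, adjusted p of 0.0257 and 0.0483 in the authors' deposited table). Their median log2 ratio was 0.04 with siSOX9 and -0.22 with siY14, beside -0.30 and -0.30 for the 12 listed synthetases.

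Of 17 measured further targets reported for ATF4, 4 were lower and 1 higher with siSOX9, beside 3.11% and 1.58% of all genes at that base mean, and 3 were lower and 1 higher with siY14, beside 7.01% and 4.99%. PCK2, the mitochondrial PEP carboxykinase, went from 8244 to 3889 (log2 ratio -1.08, adjusted p = 3.14e-06 in the authors' deposited table), FGF21, a stress hormone, from 43.6 to 12.1, and VEGFA and TNFRSF10B were also lower. SQSTM1, an autophagy receptor, was higher, from 25440 to 48107 (log2 ratio 0.92, adjusted p = 0.000139 in the authors' deposited table). With siY14 PCK2 and VEGFA were lower as well (log2 ratios -0.69 and -0.57), DDIT4, an inhibitor of mTORC1, was lower (log2 ratio -0.99, adjusted p = 1.34e-06 in the authors' deposited table), and the apoptosis gene BCL2L11 was higher.

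Among other amino acid enzymes and carriers, those called with siSOX9 went both ways. OAT, ornithine aminotransferase, and GCLM, a subunit of the enzyme that starts glutathione synthesis, were higher (log2 ratios 0.96 and 0.92), and ASS1, of arginine synthesis, was lower (-0.77). SLC36A1 was higher and SLC43A1 lower (0.78 and -0.73). GLDC, of glycine cleavage, was higher from a mean of 1.61 to 19.3. With siY14, ASS1 was lower and SLC36A1 higher again (-0.82 and 0.65), SLC1A3 and PYCRL were higher (1.25 and 0.75) and IARS2 was lower (-0.70), while CARS2 was higher (0.72). All of these passed the threshold of 0.05 on the adjusted p in the authors' deposited tables. The 15 other amino acid transporter genes with a base mean of at least 10 had a median log2 ratio of 0.17 with siSOX9 and -0.01 with siY14. For the 8 listed transporters it was -0.54 and 0.28. MYC, which shares targets with ATF4, did not pass in either table (log2 ratios -0.56 and -0.02), and its relatives MXD1 and MXI1 were lower with siSOX9 (-0.75 and -0.79), and MXD4 was higher with siY14 (1.11).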

How the data were processed

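RNA from 13 DLD-1 samples was sequenced. The submitters' processing notes name TopHat2, Bowtie, HISAT2, SAMtools, HTSeq, DESeq and the build hg19, and versions are not given in the sources used here. Both deposited tables hold, per the file headers, arm means of normalised read counts, a signal scaled by the authors' size factors, with no column per sample (unused columns of per-sample values: 0). The authors also deposited, per the file headers, a fold ratio and its log2 for each gene, and the p-value before and after Benjamini-Hochberg adjustment over genes with reads.

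An adjusted p of the authors under 0.05 was used as the call. The difference between knockdowns was tested with a normal test on the log2 ratios, adjusted over 13186 genes. Log2 ratios were computed from the arm means. Whole reads per library were recovered from the printed digits for 85.4% and 84.8% of genes with reads in the siSOX9 and siY14 tables, less often at high means (13 and 12 members with a base mean of at least 10 in both arms), and tested with limma-voom (limma 3.58.1, R 4.3.3). For members recovered in 1 arm only, no spread is given for the other. A set of reads was accepted only near equal normalised counts within the arm, or near a learned library pattern at higher means. Genes that vary widely within an arm can therefore be missed, so recovered genes may have a smaller spread than the rest. That was not tested. Python 3.11.15, NumPy 2.4.6, pandas 2.3.3, SciPy 1.17.1 and matplotlib 3.10.9 were used, and scripts were tested on simulated data. The rule for genes given in full took members called in either table and, in each role, the 2 with the largest absolute log2 ratio in each table (21 genes), and called genes of the other lists. Further uncalled members and genes, such as ATF4, CHAC1, VLDLR, DDIT3, ATF5 and HSPA5, were chosen after their values were seen. One called gene of the other lists is not reported here. The members and lists were chosen with earlier results of these data known.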

Additional observations from a re-analysis of the deposited data

Results flagged for a closer look

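Among the 13 members with 4 recovered siSOX9 libraries, 1 had a library far from the others. ATF5, an ATF4-related transcription factor gene, held 969 normalised reads in the deepest siSOX9 library, and the gap to the next library was 0.965 of the whole range. The deepest siCtrl library was low as well, at 976 beside 1938 and 1812. Chance flags about 1 in 20 groups of this size.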

How the results depend on the processing

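No paired analysis was possible because the deposited columns carry arm means and the recovered libraries have no names or replicate numbers. In the siSOX9 table library a of each arm stood apart, and with library a as a term 11 of 13 members were called by limma-voom. With siSOX9 the 11 calls became 6 in the authors' deposited table at a threshold of 0.01. By limma-voom 7 of the 13 recovered members were called (4 of the same 13 in the authors' deposited table), and 5 to 7 when 1 library was left out. The median log2 ratio ran from -0.36 to -0.23 when 1 library was left out. With siY14 there were 9 calls among all members and 3 among the 12 recovered ones in the authors' deposited table. On those 12 the count was 4 by limma-voom, beside 27.3% of all genes, and up to 6 when 1 siY14 library was left out. With libraries summed in pairs it was 0, beside 0 of 10748 genes tested. In the siY14 fits with siCtrl as 1 sample, siCtrl is assumed to vary like siY14, so no count is given. These include the fits with a siCtrl library left out. The median of -0.19 became -0.0238 by limma-voom, -0.0507 and -0.00262 without siCtrl library a and b, -0.0115, -0.0231, -0.0172 and -0.0426 without siY14 library a to d, -0.0253 in pairs, -0.00562 counted once and -0.0231 with siCtrl as 1 sample. These cover 12 members, whose median in the authors' deposited table was -0.01. The 9 differences of 44 between knockdowns compare with 4 of the 11 members in the joint limma-voom model, with every library as a sample. Calls in the other lists with siY14 went from 14 to 26 at an adjusted p of 0.1. The shares of all genes at the thresholds of 0.01 and 0.1 and with 1 library left out are not given here. Those counts are therefore not read as results about the genes. Counting agreeing libraries once, summing pairs and taking siCtrl as 1 sample were chosen after seeing the data. The median log2 ratio of the members stayed below 0 in every fit given here, in both tables. Calls changed with the setting, as the counts above show, and some uncalled genes changed sign. ATF3 with siSOX9 went from a log2 ratio of -0.13 to 0.03 without siSOX9 library a. DDIT3 had -0.15 in siY14 libraries a and c and 0.32 in b and d. Recovery limits precision most for genes with high means, and intervals between libraries cover counting and library spread only.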
